A study of Mus musculus with 16 samples.

Results

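The subject is 9 mouse liver genes of methionine and one-carbon metabolism: Mat1a, Mat2a, Gnmt, Pemt, Ahcy, Bhmt, Cbs, Cth and Shmt1. They were taken by gene symbol from a deposited table of 35275 Ensembl gene IDs, and all 9 were found. A gene was kept for testing where 4 or more of the 16 libraries reached an FPKM of 1, and all 9 were among the 11298 kept. FPKM divides a gene's fragments by its length and by the size of the library, so levels of genes of unequal length can be set side by side. The livers came from mice with an intact Zfp36l1 gene (WT) and from mice that lacked Zfp36l1 in the liver only (LKO), and each genotype received a control diet or a diet with ethanol. Each of the 4 combinations had 4 libraries, numbered 1 to 4 in the order of the records, and the labels state no pairing. The product of Zfp36l1 attaches to AU-rich parts of transcripts and hastens their decay, and the design asks how ethanol and loss of this protein change the liver transcriptome. The promoter that drove the deletion, the strain, sex and age of the mice, the make-up of the diets and the length of feeding are not given in the sources used here. The labels do not say that the libraries of a group came from separate animals, so p-values measure the spread between libraries, which may be technical.

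Methionine is turned into S-adenosylmethionine (SAM), the methyl donor of the cell, by methionine adenosyltransferases. Methyltransferases spend SAM and leave S-adenosylhomocysteine, which is split into adenosine and homocysteine. Homocysteine is either methylated back to methionine, with betaine or a folate as donor, or passed down the transsulfuration route to cysteine and glutathione. The liver carries out most of the body's methionine turnover, and disturbance of this cycle by alcohol is a long-standing subject of liver research.

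The promoters of the genes whose levels are described most fully below are printed to show how unlike they are. Sequences are from a set of RefSeq promoters (GRCm38.p6) with an entry for 7 of the 9 genes, and Mat1a and Cth had none in that set. Each window runs 5′ to 3′ on the gene's strand from 250 bases before the start of transcription to 50 bases after it. Capitals mark matches, on either strand, to any of 6 motifs: the E-box CACGTG, the GC box GGGCGG, the antioxidant response core TGACNNNGC, the ATF4 composite element TGATGNAA, the AP-1 site TGACTCA and the TATA box TATAAA.
Mat2a, chr6:72439507-72439806, minus strand: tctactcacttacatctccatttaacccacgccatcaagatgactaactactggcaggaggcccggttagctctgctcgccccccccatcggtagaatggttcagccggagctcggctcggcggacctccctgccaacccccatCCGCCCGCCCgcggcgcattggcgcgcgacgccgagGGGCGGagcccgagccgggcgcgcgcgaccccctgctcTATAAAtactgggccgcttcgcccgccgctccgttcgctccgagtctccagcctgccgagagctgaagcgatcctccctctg
Bhmt, chr13:93637709-93638008, minus strand: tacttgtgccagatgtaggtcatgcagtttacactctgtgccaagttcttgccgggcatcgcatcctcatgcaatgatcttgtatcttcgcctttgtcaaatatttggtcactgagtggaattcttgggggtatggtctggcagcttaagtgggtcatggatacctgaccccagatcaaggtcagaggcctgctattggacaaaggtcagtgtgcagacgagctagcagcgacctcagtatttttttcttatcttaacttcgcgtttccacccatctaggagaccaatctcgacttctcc
Shmt1, chr11:60811216-60811515, minus strand: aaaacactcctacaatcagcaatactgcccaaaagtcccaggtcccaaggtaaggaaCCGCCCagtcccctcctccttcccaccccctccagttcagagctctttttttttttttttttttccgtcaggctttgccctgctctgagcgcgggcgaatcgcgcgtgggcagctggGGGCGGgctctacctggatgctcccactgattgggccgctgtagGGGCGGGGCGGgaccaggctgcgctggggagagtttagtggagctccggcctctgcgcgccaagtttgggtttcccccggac
The Mat2a window was 67.0% G and C and held 3 GC boxes, of which 2 overlap, and a TATA box whose first base lies 32 bases before the start. The Shmt1 window was 60.7% G and C and held 4 GC boxes, of which 2 overlap. The Bhmt window was 48.0% G and C and held none of the 6 motifs. Over all 32851 RefSeq promoter windows, 35.7% held a GC box, 13.6% a TATA box, 7.15% the E-box, 12.4% the antioxidant response core, 3.97% the ATF4 element and 5.2% the AP-1 site. A match describes letters in the window, and binding was not measured.

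Because the protein removed in LKO livers binds AU-rich stretches, the 3′ untranslated regions of the 9 genes were searched for the 7-mer TATTTAT on the transcript strand. Mat2a held 2 copies and the other 8 genes held none in the transcript examined, against 28.9% of 10502 kept coding genes with at least 1 copy. The Mat2a sites lie 1139 and 1772 bases after the stop codon and are printed here with the 7-mer in capitals.
Mat2a site 1, chr6:72433821-72433849, minus strand, GRCm38: gtcttgagctcTATTTATtgaatgtgaag
Mat2a site 2, chr6:72433188-72433216, minus strand, GRCm38: ttctaattgctTATTTATtgtattctggg
The genotype difference of Mat2a did not pass the test on either diet.

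The genotype labels were checked on Zfp36l1 itself, which lay between 0.572 and 1.76 FPKM in the 8 LKO libraries and between 9.3 and 25.5 FPKM in the 8 WT libraries. Library 2 of the WT ethanol group stood apart. It held 9884479 reads against 19069828 to 24768501 in the other 15, and 22.53% of its reads were mitochondrial against 3.64% to 6.973%. Its level lay outside the range of the other 15 libraries for 65.8% of the kept genes and for 4 of the 9 genes described here, Gnmt, Ahcy, Cth and Pemt. The results are therefore given with and without it. In the other 15 libraries, those numbered 1 and 2 of every group lay on one side of the leading within-group component and those numbered 3 and 4 on the other; this component held 40% of the within-group variance, and the labels name no batch. The summed FPKM of 8 hepatocyte markers was 50382 to 92876 in the WT ethanol libraries, the highest being library 2, and 69380.4 to 89453 in the other 3 groups, and markers of other liver cells are given beside the ethanol results below. In bulk liver RNA, fewer cells of a type and less RNA per cell cannot be told apart.

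On the ethanol diet, the transcripts of both SAM synthetases rose and that of the folate enzyme Shmt1 fell, averaged over the 2 genotypes. Mat1a rose by 0.64 on the log2 scale and Mat2a by 0.74, and Shmt1 fell by 0.68. These were 3 of the 9 genes, where 7.78% of the 11298 kept genes passed the same test (4.59% higher and 3.19% lower). The count rested on the setting: with every library scaled to the same FPKM sum 0 of the 9 passed, beside 4.73% of kept genes. With 1 library left out in turn between 1 and 6 passed, beside 519 to 2312 of the 11298 kept genes. Bhmt had the largest change, 1.16, and missed the threshold with an adjusted p of 0.0528. With the same 16 libraries it passed after quantile normalization (1.24, adjusted p 0.0269), where 12.9% of kept genes did, and with array weights (1.14, adjusted p 0.00403), where 36.7% did. The other 5 genes had adjusted p-values between 0.264 and 0.95. The median change of the 9 genes was 0.17, beside 0.023 for all kept genes. The 9 genes were chosen with earlier results of these data known, so a share or median above that of all kept genes is no test of them.

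Without WT ethanol library 2, 6 of the 9 genes passed, beside 20.5% of all kept genes. Mat1a, Mat2a, Bhmt and Cth were higher on ethanol, and Pemt and Shmt1 were lower. The median change was then 0.38 for the 9 genes and 0.113 for all kept genes. Of the kept genes that passed, 1668 were higher and 644 lower. Quantile normalization gives every library the same distribution and so sets the overall median near 0 (-0.002) and an even split (1156 and 1099) by construction. With it, a setting chosen after seeing the data, the same 6 of 9 genes passed in these 15 libraries, beside 20% of kept genes. Of these 6, Mat1a, Mat2a, Bhmt and Shmt1 passed in each of 15 further fits, also chosen after seeing the data, that left out 1 more library, whereas Cth passed in 5 and Pemt in 7. None of the 9 genes separated the 8 ethanol from the 8 control libraries completely, which 2.0% of the kept genes did.

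**Figure D1:**
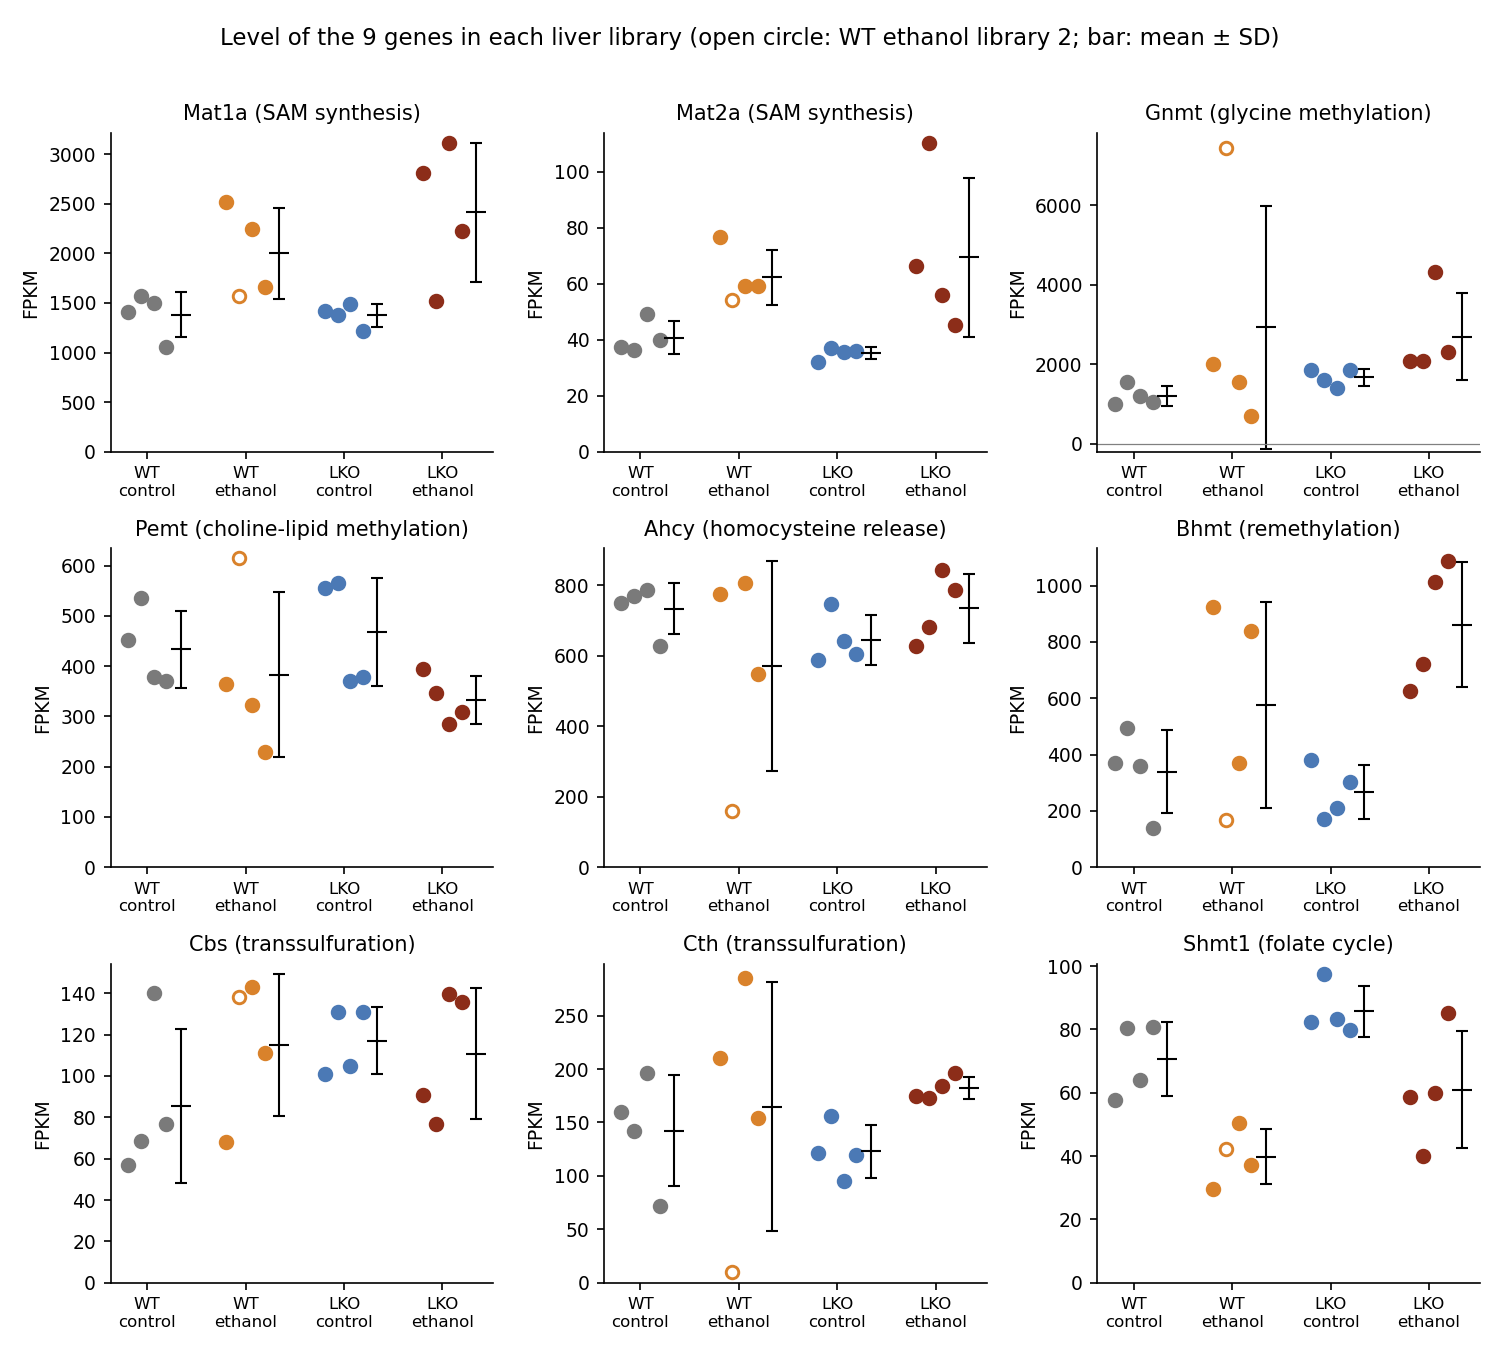
FPKM of the 9 genes (vertical axes, linear) in each of the 16 libraries, by genotype and diet; the bar beside each group is the mean ± SD of its 4 libraries and the open circle is WT ethanol library 2. That circle lies above all other points for Gnmt and Pemt and below them for Ahcy and Cth, while Mat2a is higher and Shmt1 lower in all 4 WT ethanol libraries than in all 4 WT control libraries.

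Mat1a (ENSMUSG00000037798, chr14:41105035-41124412, plus strand, GRCm38) encodes the methionine adenosyltransferase of the adult liver. It was among the most abundant transcripts, ranking 40 of 11298 by mean FPKM. Its levels were 1404, 1573, 1494 and 1058 FPKM in WT on the control diet and 2520.1, 1572, 2246 and 1657 FPKM in WT on ethanol. In LKO they were 1418, 1380.2, 1492 and 1219 FPKM on the control diet and 2807, 1517, 3106 and 2221 FPKM on ethanol. All 4 LKO ethanol libraries lay above all 4 LKO control libraries, and in WT the groups overlapped only through library 2 of the ethanol group (1572 against the highest control, 1573). Means went from 1382 ± 227 to 1999 ± 459 FPKM in WT and from 1377 ± 115 to 2413 ± 701 FPKM in LKO (SD, n = 4), which is 1.45-fold and 1.75-fold. The averaged change of 0.64 had a standard error of 0.187 and an adjusted p of 0.0446. The call held with WT ethanol library 2 (0.69, adjusted p 0.00908), WT ethanol library 4 (0.0489) or LKO ethanol library 2 (0.0249) left out, and was lost without any 1 of the other 13, at adjusted p-values from 0.059 to 0.102. It was also lost with no filter on low values (0.116), equal FPKM sums (0.15), quantile normalization (0.0716) and voom on recovered reads (0.0575).

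Mat2a (ENSMUSG00000053907, chr6:72432799-72439558, minus strand) encodes the methionine adenosyltransferase found in most other tissues and in dividing or injured liver. It was far less abundant, at 37.3, 36.4, 49.3 and 39.9 FPKM in WT on the control diet and 76.8, 54.1, 59.2 and 59.3 FPKM on ethanol. In LKO it stood at 32.0, 37.1, 35.8 and 35.9 FPKM on the control diet and at 66.4, 110.2, 55.9 and 45.4 FPKM on ethanol. The ethanol groups lay wholly above the control groups in both genotypes, and LKO ethanol library 2 was the highest of all. The fold of the means was 1.53 in WT and 1.97 in LKO. The averaged change was 0.74 with a standard error of 0.185 and an adjusted p of 0.0209, and it passed with each of the 16 libraries left out in turn. Scaling every library to the same FPKM sum ended the call (0.68, adjusted p 0.0883). The gene overlaps a transcript model on the opposite strand, Particl, and whether reads were counted by strand is not given in the sources used here.

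Because both values are per length, the pair can be compared within a library. The FPKM of Mat1a divided by that of Mat2a was 34.4 ± 7.46 in WT controls, 31.9 ± 4.5 in WT on ethanol and 39.3 ± 4.61 in LKO controls (SD, n = 4). In LKO on ethanol the ratio was 42.3, 13.8, 55.5 and 49.0, a mean of 40.1 ± 18.4. Library 2 of this group combined the highest Mat2a with the lowest Mat1a of its group, and the other 3 had ratios above the LKO control mean. Within each genotype the mean ratios of the 2 diets differed by less than their spread.

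**Figure D2:**
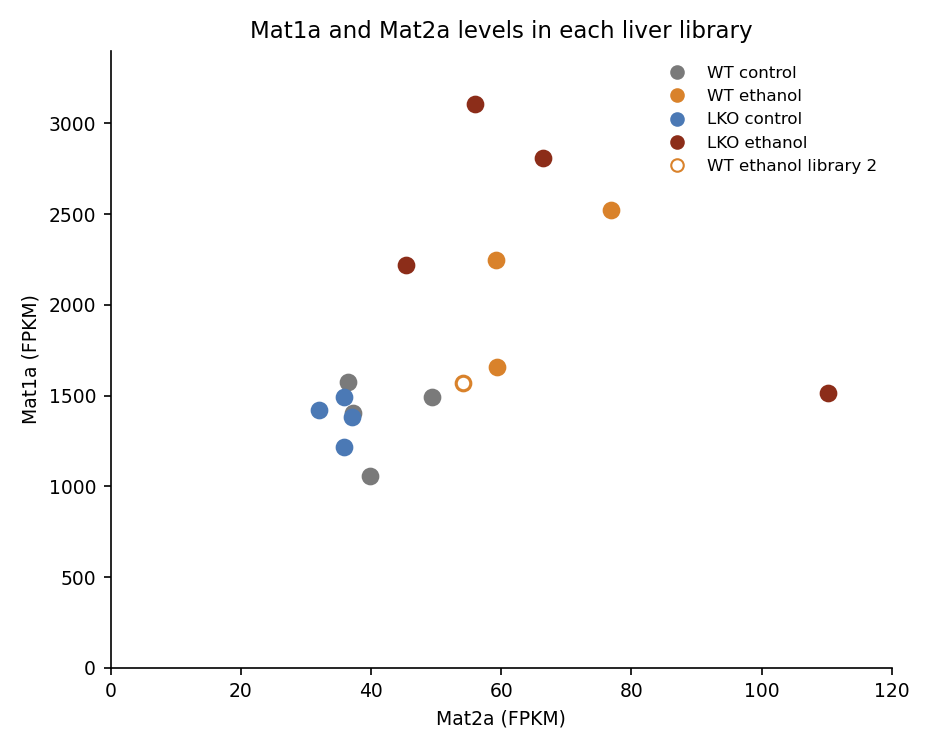
Mat1a (vertical axis, FPKM) against Mat2a (horizontal axis, FPKM) in each of the 16 libraries, coloured by genotype and diet, with WT ethanol library 2 as an open circle. The 8 control libraries sit together at low Mat1a and low Mat2a, the ethanol libraries spread to the upper right, and LKO ethanol library 2 lies alone at 110.2 FPKM of Mat2a and 1517 FPKM of Mat1a.

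Of the 2 methyltransferases, Gnmt (ENSMUSG00000002769, chr17:46725664-46729168, minus strand) spends SAM on glycine and keeps the ratio of SAM to its product in check. Its levels were 994, 1544, 1197 and 1050.1 FPKM in WT on the control diet and 2006, 7456, 1559 and 702 FPKM in WT on ethanol. In LKO they were 1855, 1599, 1403 and 1846 FPKM on the control diet and 2089, 2071, 4321 and 2309 FPKM on ethanol. The 4 LKO ethanol libraries lay above the 4 LKO control libraries, whereas the WT ethanol group ran from the lowest to the highest value of the series. Gnmt did not pass the test (averaged change 0.70, standard error 0.35, adjusted p 0.264). In WT the fold of the means was 2.45 with library 2 and 1.19 without it. Without that library Gnmt was 1.90-fold as high in LKO as in WT on ethanol (0.98 on the log2 scale, adjusted p 0.184), and its lowest LKO value, 2071, lay above the highest remaining WT value, 2006.

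Pemt (ENSMUSG00000000301, chr11:59970614-60046489, minus strand) methylates phosphatidylethanolamine to phosphatidylcholine with SAM. Its levels were 451, 535, 378 and 371 FPKM in WT on the control diet and 365, 615, 322 and 229.8 FPKM on ethanol. In LKO they were 556, 566, 370.1 and 378 FPKM on the control diet and 394, 346, 284 and 308 FPKM on ethanol. WT ethanol library 2 was the highest of all 16, and the other 3 WT ethanol libraries lay below all WT controls. In LKO the diets overlapped through library 1 on ethanol. In all 4 groups libraries 1 and 2 were higher than libraries 3 and 4. The averaged change was -0.36 (adjusted p 0.346) with all libraries and -0.49 (standard error 0.154, adjusted p 0.0352) without WT ethanol library 2. Within the 2 sides of the split it was -0.515 in libraries 1 and 2 and -0.399 in libraries 3 and 4. With a term for the side and without WT ethanol library 2, it was -0.46 with an adjusted p of 0.00225, where 32.6% of kept genes passed. The side was read from the same values, so the term lowers the residual spread by construction and its smaller p is no added support.

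Ahcy (ENSMUSG00000027597, chr2:155059310-155074497, minus strand) splits S-adenosylhomocysteine and so releases homocysteine. It ran from 548 to 845 FPKM in 15 libraries and stood at 159.7 FPKM in WT ethanol library 2. On the control diet the means were 734 ± 73 FPKM in WT and 645 ± 71.6 FPKM in LKO, and LKO on ethanol had 735 ± 98.3 FPKM (SD, n = 4). The remaining 3 WT ethanol libraries had 776, 806 and 548 FPKM. Without library 2 the averaged change was 0.06 with a standard error of 0.128 and an adjusted p of 0.777, and with it -0.20 and 0.733.

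Bhmt (ENSMUSG00000074768, chr13:93616675-93637961, minus strand) remethylates homocysteine with betaine and is found mainly in liver and kidney. It stood at 369, 493, 359.6 and 138 FPKM in WT on the control diet and at 923, 167, 369.6 and 840.3 FPKM on ethanol. In LKO it was 382, 170.3, 212 and 304 FPKM on the control diet and 626, 721, 1014 and 1086 FPKM on ethanol. In LKO every ethanol library exceeded every control library, whereas in WT 2 ethanol libraries were far above the controls and libraries 2 and 3 fell among them. The fold of the means was 3.23 in LKO and 1.69 in WT, or 2.09 in WT without library 2. The averaged change was 1.16 (standard error 0.351, adjusted p 0.0528) with all libraries and 1.41 (standard error 0.286, adjusted p 0.00355) without WT ethanol library 2. Within the 2 sides of the split it was 1.25 and 1.68. The difference between the genotypes in this response, 1.12, did not pass the test (adjusted p 0.927). Bhmt has a close copy, Bhmt2, and overlaps the antisense model Gm15622, which averaged 3.31 FPKM, so part of its reads may be misassigned.

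Cbs (ENSMUSG00000024039, chr17:31608894-31637238, minus strand) and Cth (ENSMUSG00000028179, chr3:157894248-157925077, minus strand) encode the 2 enzymes of transsulfuration, which join homocysteine to serine and then release cysteine. Cbs had 56.9, 68.5, 140.2 and 76.6 FPKM in WT on the control diet and 68.0, 138, 143 and 111 FPKM on ethanol. In LKO it had 101, 131, 105 and 131 FPKM on the control diet and 90.6, 76.8, 139.8 and 136 FPKM on ethanol. The ranges overlapped in every comparison, and the averaged change was 0.17 (standard error 0.229, adjusted p 0.734).

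Cth had 159.7, 142, 196 and 71.7 FPKM in WT on the control diet and 210.1, 10.4, 285 and 154 FPKM on ethanol. In LKO it had 121, 156, 95.5 and 120 FPKM on the control diet and 175, 173, 184 and 196 FPKM on ethanol. The 4 LKO ethanol values were close to each other and above all LKO controls, and WT ethanol library 2 was the lowest of the series. The averaged change was 0.08 (standard error 0.491, adjusted p 0.95) with all libraries and 0.61 (standard error 0.20, adjusted p 0.0417) without that library. This second call was lost without any 1 of 10 further libraries, at adjusted p-values up to 0.117 without WT ethanol library 3.

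Shmt1 (ENSMUSG00000020534, chr11:60788104-60811718, minus strand) encodes the cytosolic hydroxymethyltransferase that moves a carbon from serine to folate. It had 57.6, 80.5, 63.9 and 80.8 FPKM in WT on the control diet and 29.6, 42.2, 50.5 and 37.1 FPKM on ethanol. In LKO it had 82.2, 97.4, 83.2 and 79.8 FPKM on the control diet and 58.8, 40.0, 59.8 and 85.2 FPKM on ethanol. In WT the diets did not overlap, and in LKO only library 4 on ethanol reached the controls. Ethanol means were 0.564 of control in WT and 0.711 in LKO. The averaged change was -0.68 (standard error 0.184, adjusted p 0.0326), and it was -0.69 (adjusted p 0.00795) without WT ethanol library 2. In that smaller set its size differed between the 2 sides of the split, -1.02 in libraries 1 and 2 and -0.454 in libraries 3 and 4. With all 16 libraries as the base the call was lost without any 1 of 10 libraries, at adjusted p-values from 0.0519 to 0.075: all 4 LKO controls, LKO ethanol 1, 2 and 3, WT controls 2 and 4, and WT ethanol 4. It was also lost with equal FPKM sums (0.0605). Shmt1 overlaps Smcr8 on the opposite strand, which averaged 3.88 FPKM.

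Within 1 genotype the test had less to work with, and none of the 9 genes passed with all libraries. In WT, 4.18% of kept genes passed (292 higher and 180 lower, or 470 and 462 after quantile normalization) and in LKO 0.425% passed. An unadjusted p under 0.05 by limma was found for 2 of the 9 genes in WT, beside 19.7% of kept genes, and for 3 of the 9 in LKO, beside 9.19%. Ethanol and control libraries did not overlap for 2 of the 9 genes in WT, beside 10.1% of kept genes, and for 5 of the 9 in LKO, beside 12.3%. In WT these were Mat2a, higher, and Shmt1, lower, and in LKO they were Mat1a, Mat2a, Gnmt, Bhmt and Cth, all higher. Without WT ethanol library 2, Shmt1 passed in WT (-0.86, adjusted p 0.0356), where 9.48% of kept genes did. Mat2a (0.88, adjusted p 0.038) and Bhmt (1.72, adjusted p 0.0249) then passed in LKO, where 3.62% did. With a further term for the side of the split, Mat2a (adjusted p 0.0406) and Pemt (0.034) also passed in WT, where 19.7% of kept genes did. Mat1a (0.0373) and Pemt (0.028) then also passed in LKO, where 10.7% did. The side was read from the same values and lowers the residual spread by construction, so these further calls are no added support.

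**Figure D3:**
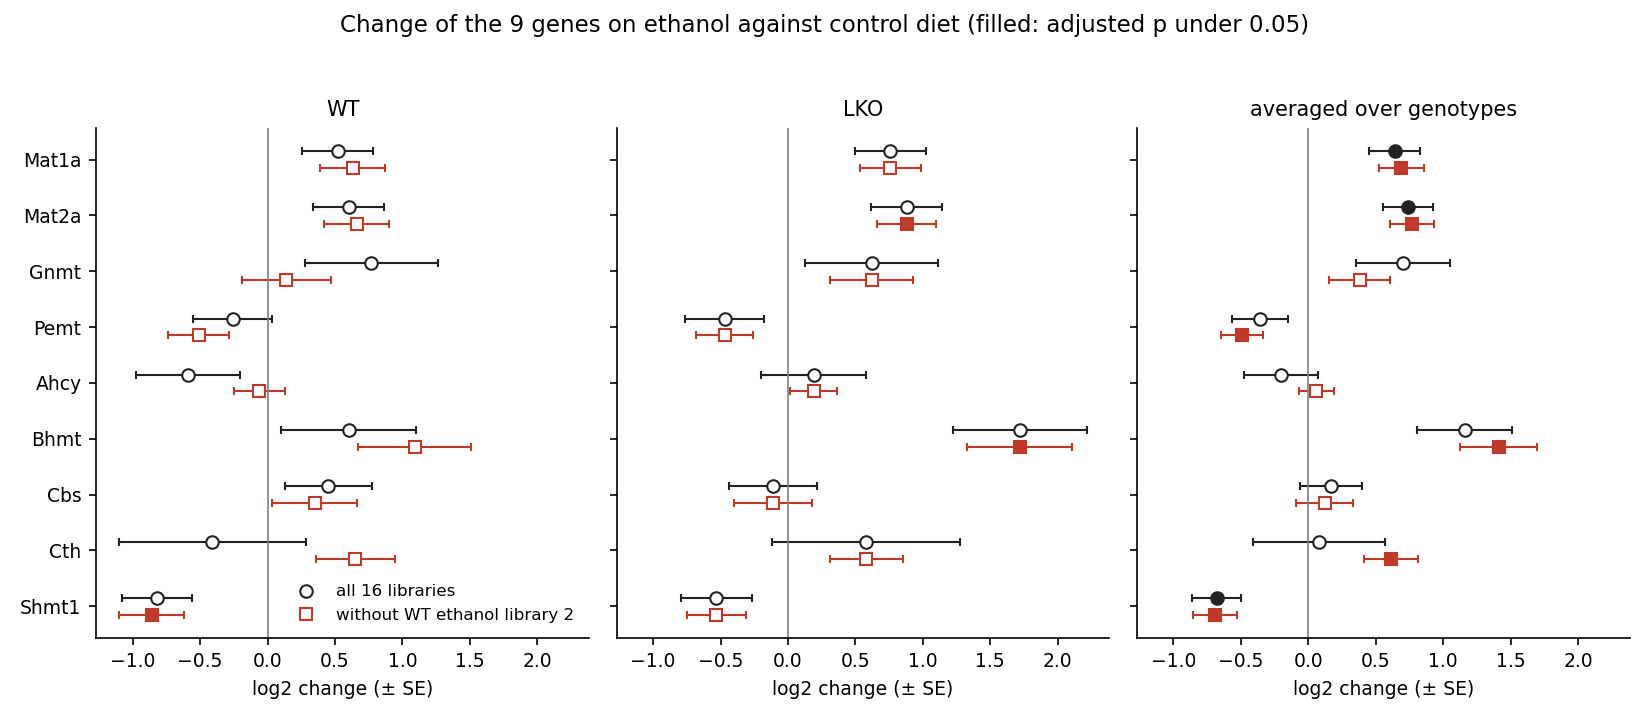
Log2 change on ethanol against the control diet (horizontal axes, ± SE from limma) for the 9 genes in WT, in LKO and averaged over genotypes, with all 16 libraries (circles) and without WT ethanol library 2 (squares); filled symbols passed at an adjusted p under 0.05. In the averaged panel 3 circles and 6 squares are filled, and the symbols of Gnmt, Ahcy and Cth move most between the 2 fits.

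Loss of Zfp36l1 moved none of the 9 genes past the threshold. On the control diet 0 of 9 passed, beside 0.00885% of kept genes, and 0 had an unadjusted p under 0.05 by limma, beside 3.45%. The changes ran from -0.28 (Bhmt) to 0.52 (Cbs), with adjusted p-values of 1.0. On ethanol 0 of 9 passed, beside 0.0797% of kept genes. There 1 of the 9, Shmt1, had an unadjusted p under 0.05, as did 11.9% of kept genes, with a change of 0.58 and an adjusted p of 0.401. Shmt1 means were 39.9 ± 8.79 FPKM in WT and 60.9 ± 18.5 FPKM in LKO (SD, n = 4), and the libraries overlapped. For Mat2a, the gene with the AU-rich sites, LKO minus WT was -0.20 (standard error 0.262) on the control diet and 0.09 (standard error 0.262) on ethanol. The ethanol response did not pass as different between genotypes for any of the 9 genes, beside 0.0% of kept genes. An unadjusted p under 0.05 was found for 0 of the 9 and for 3.2% of kept genes. Standard errors of this difference ran from 0.368 (Shmt1) to 0.983 (Cth), so sizeable differences were not detectable. With array weights 1 of 9 genes passed between genotypes on ethanol, Gnmt, at 0.96 and an adjusted p of 0.0231, but so did 30.7% of kept genes. In that fit the WT ethanol libraries 1 to 4 had weights of 0.278, 0.0418, 5 and 1.06, so library 3 carried most of that group's mean.

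Further genes of the same metabolism were listed in 8 groups with 93 genes, of which 90 were kept. On ethanol, averaged over genotypes, 9 were higher and 7 lower, 17.8% of the 90 beside 7.78% of all kept genes, and without WT ethanol library 2 there were 22 higher and 11 lower, 36.7% beside 20.5%. The lists were chosen with earlier results of these data known, so a share above that of all kept genes is no test of them. Between genotypes 0 of 90 passed on either diet, beside 0.00885% of kept genes on the control diet and 0.0797% on ethanol. For the difference in ethanol response 0 of 90 passed, beside 0.0% of kept genes, which does not show that the responses were alike. The 16 genes that passed kept their direction under each of 5 other settings chosen after seeing the data, and 11 of them also passed with every library scaled to the same FPKM sum. The 5 that did not were Mtr, Csad, Smox, Gss and Gsr (adjusted p-values from 0.0512 to 0.122). Of the 16, Mthfd2 and Psat1 reached the filter on low values through ethanol libraries only and Mtr through control libraries only, so that their difference was in part a condition of being tested.

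Among 10 genes of the methionine cycle and remethylation, 1 passed, beside 7.78% of all kept genes. This was Mtr, the folate-dependent methionine synthase, which fell by 0.46 (adjusted p 0.0366). Among 11 kept methyltransferases that use SAM, 1 was higher and 3 were lower, beside 4.59% and 3.19% of all kept genes. Nnmt, which methylates nicotinamide, rose by 1.36 (adjusted p 0.0248). Inmt, which methylates indole amines, fell by 2.64 (adjusted p 0.000619) and the creatine-making Gamt by 1.11 (adjusted p 0.0151). Inmt also passed within WT, with a fall of 3.25 (adjusted p 0.00446). In LKO it fell by 2.04, with all ethanol libraries below all controls, and did not pass with all libraries (adjusted p 0.109, or 0.0353 without WT ethanol library 2).

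The folate group had 1 higher and 1 lower of 16 kept genes, beside 4.59% and 3.19% of all kept genes. The mitochondrial folate enzyme Mthfd2 rose by 1.25 (adjusted p 0.0247), from at most 1.12 FPKM in control libraries to 1.01 to 10.2 FPKM on ethanol. All 12 genes of choline, betaine and glycine oxidation missed the threshold with all libraries. Without WT ethanol library 2 it was passed by 2 higher and 2 lower, where 20.5% of all kept genes passed. In the CDP-choline route, the alternative to Pemt for making phosphatidylcholine, 1 of 10 genes passed, beside 7.78% of all kept genes. This was Chka, the choline kinase of the first step, which rose by 1.95 (adjusted p 0.00285). Within WT it rose by 1.85 (adjusted p 0.0449). That call was lost with equal sums (0.0826), voom (0.058), and quantile normalization without WT ethanol library 2 (0.0805). In LKO it did not pass with all libraries, at 1.95 to 2.91 FPKM on the control diet and 4.95 to 32.8 FPKM on ethanol.

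Downstream of transsulfuration, 3 of 12 genes were higher and 1 was lower, beside 4.59% and 3.19% of all kept genes. The glutathione synthetase Gss rose by 0.72 (adjusted p 0.0227), the glutathione reductase Gsr by 0.88 (adjusted p 0.033) and the sulfide-oxidising Ethe1 by 1.08 (adjusted p 0.00339). Csad, which turns a cysteine product toward taurine, fell by 1.72 (adjusted p 0.0301). Of 12 genes of polyamine metabolism and methionine salvage, 1 was higher and 1 lower, beside 4.59% and 3.19% of all kept genes. The spermine oxidase Smox rose by 1.26 (adjusted p 0.0275) and the polyamine oxidase Paox fell by 1.41 (adjusted p 0.000919). Paox fell within WT (by 1.42, adjusted p 0.0151) and within LKO (by 1.41, adjusted p 0.0497, or 0.139 with equal sums).

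Serine synthesis feeds the carbon that Shmt1 moves to folate, and 2 of its 7 listed genes passed, both higher, beside 7.78% of all kept genes. Psat1 rose by 2.02 (adjusted p 0.00645) and Psph by 1.29 (adjusted p 0.0066), and for both genes all 8 ethanol libraries lay above all 8 control libraries, a separation that 2.0% of kept genes showed in either direction. Psat1 was at most 1.07 FPKM in control libraries. Within WT 3 passed, beside 4.18% of kept genes: Psat1 (2.51, adjusted p 0.0237), Psph (1.48, adjusted p 0.0354, or 0.0908 with equal sums) and Phgdh (1.36, adjusted p 0.034). The Phgdh call was lost after quantile normalization (0.0669) and with voom (2.83, adjusted p 0.0535). Psat1 and Phgdh reached the filter through ethanol libraries only. Their calls, the counts that include them and the separation of Psat1 were therefore in part a condition of being tested. The WT ethanol mean of Phgdh was 2.86 FPKM with library 2 and 1.43 FPKM without it. In LKO 0 of 7 genes passed, where 0.425% of kept genes did, and the difference between genotypes did not pass for any of the 7.

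**Figure D4:**
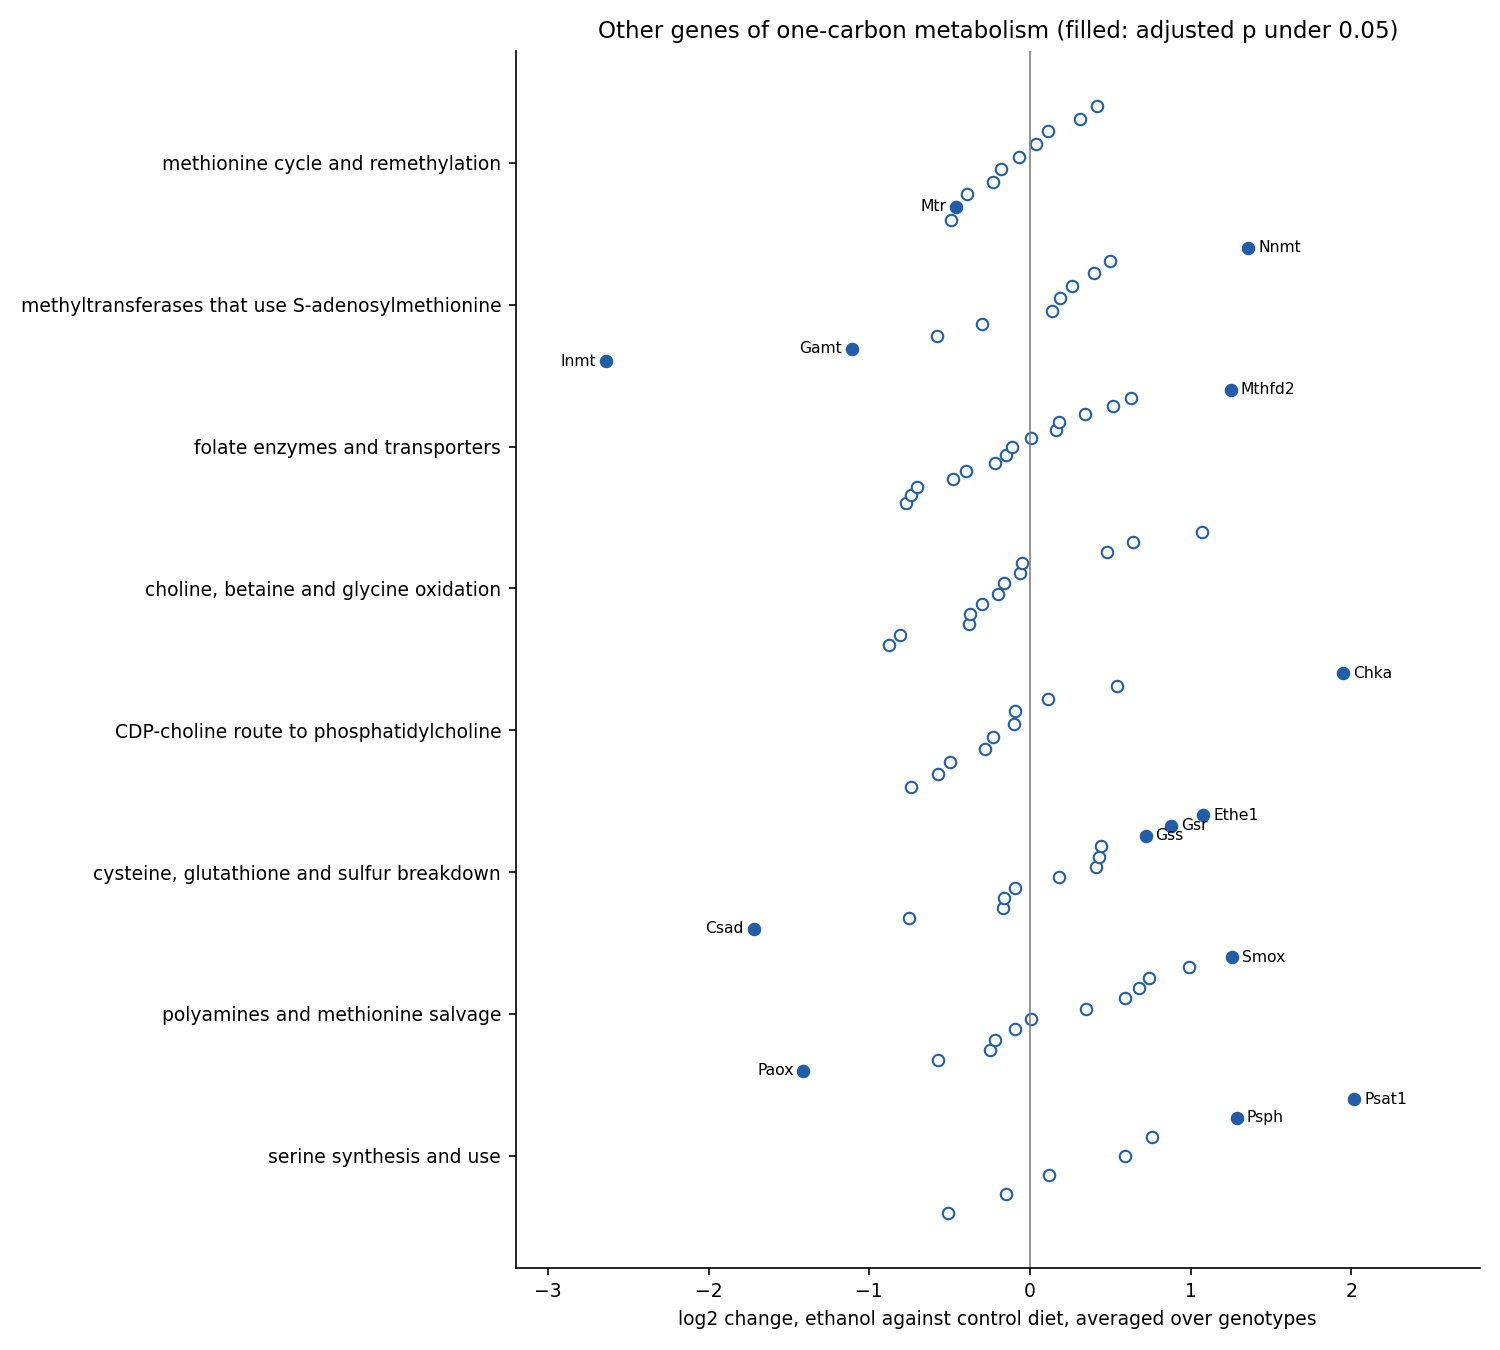
Log2 change on ethanol against the control diet, averaged over genotypes with all 16 libraries (horizontal axis), for the kept genes of the 8 lists, less 2 that are not reported here; each point is 1 gene, sorted within its list, and the filled and named points passed at an adjusted p under 0.05. Named points lie on both sides of 0, from Inmt at -2.64 to Psat1 at 2.02.

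Of 54 kept markers of liver zones and liver cell types, 5 passed for the averaged ethanol change, 9.26% beside 7.78% of all kept genes. The summed FPKM of 7 pericentral hepatocyte markers was 3217 to 5436 in WT and 3085 to 5498 in LKO on the control diet, and 1237 to 1734 in WT and 1351 to 4273 in LKO on ethanol. Cyp2e1 made up most of this sum, with a mean of 3260 FPKM in WT controls. Of the 7, Glul (-1.32, adjusted p 0.0167) and Cyp2e1 (-1.28, adjusted p 0.00707) fell. The other 5 did not pass, and 3 of them had higher means on ethanol than on the control diet in LKO: Cyp1a2 (179 and 250 FPKM on control and ethanol), Oat (363 and 463 FPKM) and Axin2 (1.37 and 1.71 FPKM). Periportal sums overlapped across all 4 groups, at 687 to 3505 FPKM, and 0 of 8 such markers passed with all libraries. The endothelial marker Lyve1 rose by 1.75 (adjusted p 0.0208), as 1 of 8 of its list. Des rose by 0.57 (adjusted p 0.0379), as 1 of 8 stellate cell and fibroblast markers, and Sox9 by 0.79 (adjusted p 0.016), as 1 of 3 kept cholangiocyte markers. Of 8 hepatocyte, 8 macrophage and 4 kept lymphocyte and neutrophil markers, 0 passed. Without WT ethanol library 2, the fit in which 6 of the 9 genes passed, 13 of the 54 markers did, 24.1% beside 20.5% of all kept genes. Both shares lay near those of all kept genes. The periportal Hsd17b13 (1.03, adjusted p 0.00297), the macrophage Marco (1.0, adjusted p 0.0336), the endothelial Pecam1 (0.63, adjusted p 0.0424) and the stellate Pdgfrb (0.61, adjusted p 0.0259) were then also higher. The hepatocyte Apoa2 (-0.55, adjusted p 0.0133) and Ttr (-0.54, adjusted p 0.0186), the pericentral Lgr5 (-0.53, adjusted p 0.026) and the cholangiocyte Spp1 (-0.64, adjusted p 0.0128) were lower. No marker of any list was at 0 in all libraries. Summed endothelial markers ran from 16.7 to 139.7 FPKM, and summed cholangiocyte markers were 76.1 FPKM in WT ethanol library 2 and at most 35.1 FPKM elsewhere. The part of these marker levels in the changes of the 9 genes was not tested.

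Across the 15 libraries other than WT ethanol library 2, the 9 genes did not vary as 1 block. The values that follow are Pearson correlations of log2(FPKM + 1), given as a description, and the libraries share the diet effect. Mat1a went with Bhmt (0.74), Cth (0.69) and Gnmt (0.62). Mat2a went with Bhmt (0.60), Cth (0.54) and Mat1a (0.51) and ran against Shmt1 (-0.81) and Pemt (-0.52). After group means were subtracted, Mat2a and Shmt1 still ran against each other at -0.77, while Mat1a and Bhmt dropped to 0.28. Mat2a and Cth were then at 0.03, and the sign turned for Mat2a with Bhmt (-0.19), Mat1a (-0.38) and Pemt (0.13). Ahcy and Cth (0.71), Ahcy and Gnmt (0.70) and Mat1a and Gnmt (0.64) were then the highest pairs. With WT ethanol library 2 included, Ahcy and Cth reached 0.94 and Gnmt and Ahcy changed from 0.44 to -0.53, so such values rest on that library.

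**Figure D5:**
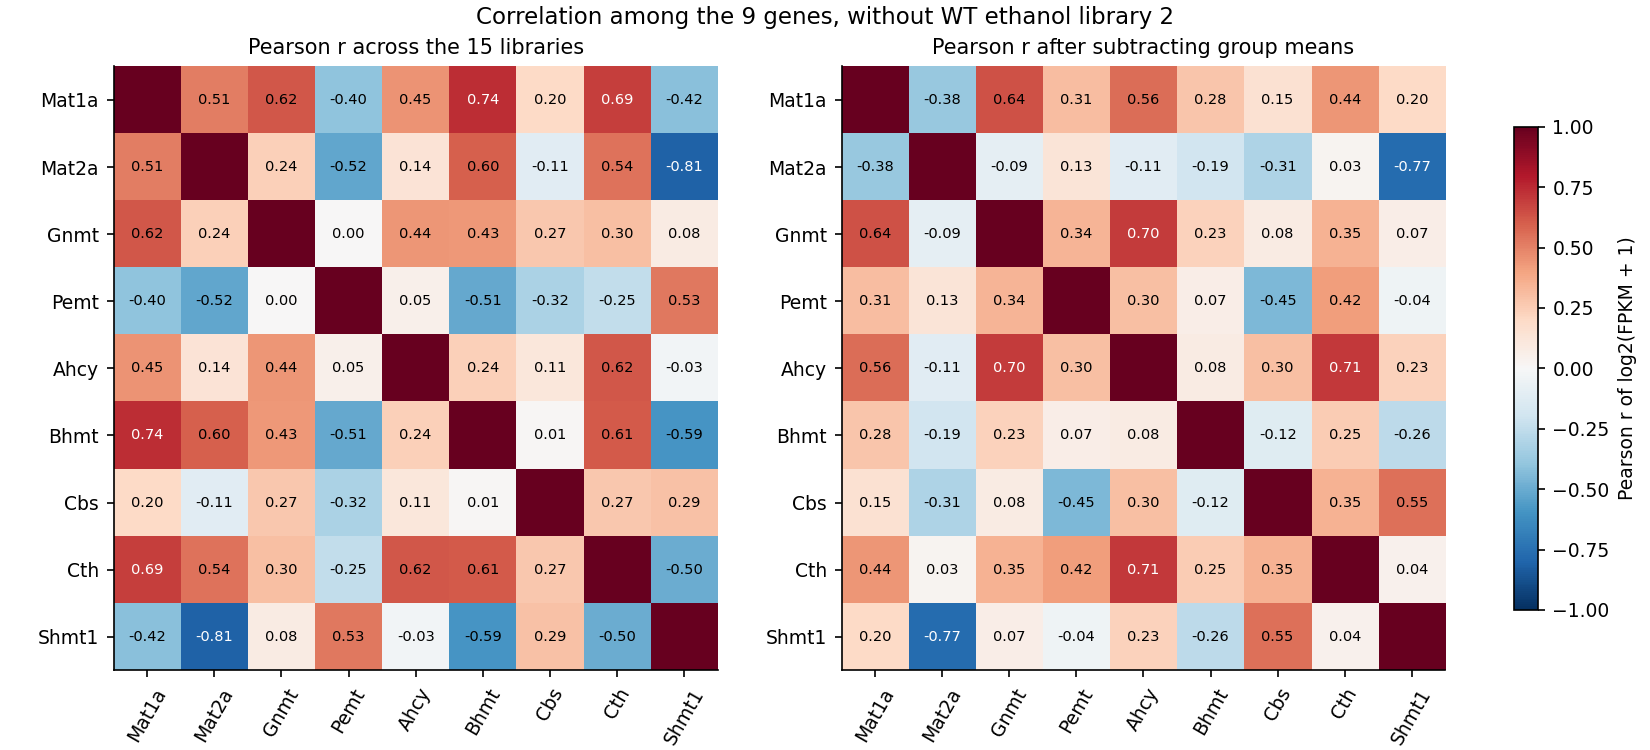
Pearson correlation of log2(FPKM + 1) between the 9 genes over 15 libraries, without WT ethanol library 2 (left), and after subtracting each group's mean (right); red is positive and blue negative. The Mat2a and Shmt1 cell is blue in both panels (-0.81 and -0.77), and the Mat1a row is paler on the right for Bhmt (0.74 to 0.28).

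The kept genes whose levels ran most like each of the 9, over the same 15 libraries, were as follows. For Mat1a they were Nnmt (0.939) and Aass (0.897), and Nnmt is itself a SAM-using methyltransferase. For Mat2a they were Tnfrsf12a (0.961), a receptor of the TNF family, and Atf4 (0.958), a transcription factor of the amino acid response. For Bhmt they were Ethe1 (0.918) and Gsta2 (0.867), a glutathione transferase. Shmt1 ran with F7 (0.919) and Hpd (0.901), which encode a clotting factor and a tyrosine-breaking enzyme, and Pemt with Uox (0.94) and Aadac (0.939). For Gnmt the closest were Leap2 (0.868) and Cyp2c29 (0.854), and for Cth Rnf144a (0.849) and Ddc (0.803). Cbs ran with Cox6a1 (0.896) and Cox5a (0.839), subunits of cytochrome oxidase, and Ahcy ran with Esrrg (0.727) and Suox (0.651), the lowest of these values. These were picked as the highest of all kept genes, so their height carries no test.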

How the data were processed

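The deposited table holds FPKM values that the authors made for 16 mouse liver libraries (total RNA, standard Illumina preparation, per the labels' protocols). The submitters' processing notes name fastp, STAR 2.6.1, HTSeq, DESeq2 and mm10, with no role or order, and strandedness is not given in the sources used here. Symbols and positions came from GENCODE M21 (34490 of 35275 IDs matched). FPKM steps gave whole reads (100% of values within 0.1 of a whole read), from which depth was read: 9884479 reads in WT ethanol library 2 and 19069828 to 24768501 in the other 15. Because these reads were recovered by arithmetic, the main test used the FPKM values. No 2 libraries held identical values.

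Values were taken as log2(FPKM + 1), so fold changes of low genes are understated, and 11298 genes with an FPKM of 1 or more in at least 4 libraries were kept. Group means were fitted with limma 3.58.1 in R 4.3.3 (intensity-trended variance, two-sided, Benjamini-Hochberg adjustment over kept genes, threshold 0.05) for 6 contrasts over all 4 groups. Adjusted p-values in the text are limma's. The scripts were tested on simulated data. Alternatives were another pseudocount (0.1), no filter and a stricter one (FPKM 5), equal sums, quantile normalization, array weights, voom on recovered reads, only the groups compared, a covariate for the 2 sides of the split, and each library left out. The array weights used the gene-by-gene method, set after the default did not converge.

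The 9 genes and the lists were chosen with earlier results of these data known. Of the lists, the text names up to 4 called genes per list and contrast, by smallest adjusted p, and for each of the 9 the 2 kept genes with the highest correlation, passing over predicted genes. Prmt1 and Rhbg are not analysed here, and 2 called genes of the lists enter the counts but are not reported singly here.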

Additional observations from a re-analysis of the deposited data

Results flagged for a closer look

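Gnmt in LKO ethanol library 3 stood at 4321 FPKM, while the other 3 libraries of the group lay between 2071 and 2309 FPKM. The gap to the nearest was 0.894 of the whole range of the group. It was the 1 case of a library far from the others of its group among 40 groups of 4 examined, and chance gives about 1 in 20.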

How the results depend on the processing

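No paired analysis was run, because the labels state no pairing and no number in the sample titles is shared between groups. Some control and ethanol titles carry consecutive numbers, and the labels do not say what these numbers mean. Of the 3 genes called with all 16 libraries, Mat2a lost its call with equal sums (adjusted p 0.0883). Mat1a lost it with no filter (0.116), equal sums (0.15), quantile normalization (0.0716) and voom (0.0575), and Shmt1 with equal sums (0.0605). Depth limits none of the 9 genes, whose lowest value rested on 186 reads (Cth in WT ethanol library 2).

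The number of all genes called also moved. For ethanol averaged over genotypes it was 552 with the stricter filter, 534 with equal sums, 1452 with quantile normalization and 4147 with array weights. Without WT ethanol library 2 it was 2255 with quantile normalization and 3684 with the side term. In WT it was 283 with no filter, 257 with the stricter filter, 253 with equal sums, 932 with quantile normalization, 4334 with array weights and 58 with only the groups compared, and without WT ethanol library 2 it was 1098 with quantile normalization and 2229 with the side term. In LKO it was 18 with no filter, 25 with equal sums, 105 with quantile normalization, 869 with array weights and 248 with only the groups compared, and without WT ethanol library 2 it was 501 and 1206 in the same order. Between genotypes on the control diet it was 2 with quantile normalization, 260 with array weights, 13 with only the groups compared, and 9 without WT ethanol library 2 with either quantile normalization or the side term. On ethanol it was 3 with no filter, 3465 with array weights, 5 with voom, 3 with only the groups compared, and 178 without WT ethanol library 2 with the side term. The difference of responses had 506 genes called with array weights.

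Of the 9 genes, ethanol averaged over genotypes had 0 called with equal sums and 6 with array weights, with quantile normalization without WT ethanol library 2, and with the side term. In WT there were 6 with array weights, beside 4334 of the 11298 kept genes. Without WT ethanol library 2 there were 1 with quantile normalization, beside 1098 kept genes, and 3 with the side term, beside 2229. In LKO there were 3 with array weights, beside 869 kept genes, and 1 with only the groups compared, beside 248. Without WT ethanol library 2 there were 3 with quantile normalization, beside 501 kept genes, and 4 with the side term, beside 1206. Between genotypes on ethanol there was 1 with array weights, beside 30.7% of kept genes.

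Changes of single genes turned sign 75 times in all, of which 1 had an adjusted p under 0.05 in either fit: Cth in WT, with array weights (0.86, adjusted p 0.022). With array weights, Ahcy was 0.0914 on ethanol averaged over genotypes and 0.0216 in WT. Between genotypes on ethanol, Ahcy was then -0.00735, Cth -0.44, Mat2a -0.00278 and Pemt 0.0838. Mat1a was -0.00994 between genotypes on the control diet, and the difference of responses was -0.38 for Cth and 0.46 for Gnmt. With equal sums, the genotype change on ethanol was 0.0864 for Cbs and 0.00978 for Pemt, Mat1a on the control diet was -0.039 and the difference of responses for Gnmt was 0.0261. With quantile normalization, Mat1a on the control diet was -0.21, Pemt between genotypes on ethanol 0.0774, and the difference of responses 0.10 for Gnmt and 0.0134 for Pemt.

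Without WT ethanol library 2 and with quantile normalization, Ahcy on ethanol averaged over genotypes was 0.16 and Cth in WT 0.67. The genotype change on ethanol was then 0.068 for Cbs, -0.19 for Cth, -0.14 for Mat1a and 0.20 for Pemt, and on the control diet -0.20 for Mat1a. The difference of responses was -0.0279 for Cth, 0.46 for Gnmt and 0.14 for Pemt. With the side term in place of quantile normalization, Ahcy was 0.0628 and Cth in WT 0.67. The genotype change on ethanol was 0.16 for Cbs, -0.23 for Cth, -0.00759 for Mat2a and 0.0679 for Pemt, and the difference of responses was -0.0935 for Cth and 0.47 for Gnmt. Beyond the choice of libraries and scale, the cause was not tested.

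With each of the 16 libraries left out in turn, the genes called ranged from 519 to 2312 for ethanol averaged over genotypes, from 146 to 1071 in WT, from 6 to 409 in LKO, from 1 to 5 and from 1 to 387 between genotypes on the control diet and on ethanol, and from 0 to 6 for the difference of responses. Of the 9 genes, 1 to 6, 0 to 1 and 0 to 2 were called for ethanol averaged, in WT and in LKO. A second library left out beside WT ethanol library 2 gave 1531 to 3213 genes and 4 to 6 of the 9. Single changes whose sign turned ranged as follows. On ethanol averaged over genotypes these were Ahcy (-0.33 to 0.15), Cth (-0.16 to 0.72) and Cbs (-0.000298 to 0.30), each with 1 library or WT ethanol library 2 and a second left out. Within a genotype they were Cth in WT (-0.91 to 0.65) and Cbs in LKO (-0.24 to 0.0472). Between genotypes on the control diet they were Mat1a (-0.12 to 0.0746), Cth (-0.44 to 0.0443) and Pemt (-0.00579 to 0.20). On ethanol they were Mat2a (-0.16 to 0.26), Gnmt (-0.16 to 0.98), Cbs (-0.27 to 0.12), Cth (-0.21 to 1.34) and Pemt (-0.33 to 0.14). For the difference of responses they were Gnmt (-0.65 to 0.48), Cth (-0.0673 to 1.48) and Pemt (-0.43 to 0.0441).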
